A study of Mus musculus with 4 samples.

Results

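The Hox genes of the mouse were examined in dermal papilla cells, the cluster of mesenchymal cells at the base of each hair follicle. They were taken as the probe sets annotated to exactly 1 gene whose symbol is Hoxa, Hoxb, Hoxc or Hoxd followed by a number. This gave 37 genes, each measured by 1 probe set, among 19938 genes tested. Hoxb8 was not analysed here, because its probe set also named Hoxb7. The measured members were 10 Hoxa genes on chromosome 6, 9 Hoxb genes on chromosome 11, 9 Hoxc genes on chromosome 15 and 9 Hoxd genes on chromosome 2.

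Cells were sorted from mouse skin at postnatal day 5 as positive for both a Sox2-driven green fluorescent protein and integrin alpha 9. The Sox2 cKO group, with conditional loss of the transcription factor gene Sox2, had 2 biological replicates, and the Sox2 Het group, heterozygous for Sox2, also had 2. Both groups carried the fluorescent reporter used for the sort, and neither is wild type for Sox2. The Cre driver of the cKO, the body site of the skin, the sex of the mice and the number of animals per replicate are not stated in the labels, so p-values measure only the spread between these 4 arrays. The comparison here sets the Hox genes of sorted papilla cells with and without conditional loss of Sox2 side by side.

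Hox genes encode homeodomain transcription factors that give cells positional identity along the head-to-tail axis and along the limbs. They lie in 4 clusters, and genes at matching positions form paralogue groups numbered 1 to 13; low numbers are switched on early and anteriorly, high numbers late, posteriorly and distally. Mesenchymal cells of the skin keep much of this code after birth. In hair follicles Hoxc13 is best known from the keratinocytes of the hair shaft, where it drives hair keratin genes, and loss of Hoxc13 in mice leaves brittle hair.

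The deposited values had been centred so that the median of each probe set over the 4 arrays was 0. A value of 0.1 therefore means 0.1 log2 units above that median, and with 4 arrays the middle pair of values is always equal in size and opposite in sign. No expression level can be read from such values, so the data show whether a Hox gene differed between arrays, and not which Hox genes the papilla expressed or from which body site the skin came. In bulk samples, fewer cells of a type and less RNA per cell cannot be told apart.

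Sox2 itself stood at -0.87 and -0.94 in cKO against 0.96 and 0.87 in Het, a difference of -1.81 ± 0.06 (SE, n = 2 arrays per group) with an adjusted p of 0.345 by limma over all genes. Of the 18 dermal papilla markers examined, 9 were above 0 in the difference and 9 below. Some of them had larger differences than any Hox gene: 5 of the 18 were past 1.5-fold, against 0.702% of all genes, and 5 had an unadjusted p under 0.05 by limma, against 5.28%. Both counts include Sox2, whose loss in cKO is part of the design. Besides Sox2, those past 1.5-fold were Ndnf at 1.08 ± 0.50 and Wif1 at 0.75 ± 0.22 above 0, and Vcan at -0.77 ± 0.26 and Rspo3 at -0.66 ± 0.13 below; none passed the adjusted test. The part of these differences in the Hox values was not tested. Their presence or absence could not be read from centred values. Xist stood at 0.85 and 1.23 in cKO against -4.08 and -0.85 in Het, and the Y-linked Eif2s3y at -0.87 and -0.79 in cKO against 1.18 and 0.79 in Het. The part of these sex-linked differences in the Hox values was not tested.

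The Hox genes differed little between cKO and Het. Differences, as cKO minus Het on the log2 scale, lay between -0.27 (Hoxc10) and 0.34 (Hoxc4), with a median of -0.016, against a median of 0.0034 over all genes tested. Of the 37 genes 17 were above 0 and 20 below, while 52.3% of all genes were above 0. The difference was under 0.1 in size for 27 Hox genes, and 73.4% of all genes were that small. Its median size was 0.068 over the Hox genes, larger than the 0.047 over all genes, so the Hox differences were small without being smaller than usual. The largest, Hoxc4, amounted to 1.26-fold and was the 1 Hox gene that differed by at least 25%, as 4.3% of all genes did. No Hox gene reached 1.5-fold, a size that 0.702% of all genes reached, 0.647% with separated groups as well.

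No Hox gene passed limma's moderated test at an adjusted p of 0.05, nor did any of the 19938 genes (percent called 0). The smallest adjusted p of a Hox gene was 0.897 (Hoxa10). At an unadjusted p under 0.05 there was 1 Hox gene, Hoxa10, which is 2.7% of the members, against 5.28% of all genes. The unmoderated statistic also called 0 genes, with 937 at an unadjusted p under 0.05, Hoxa10 again the only Hox gene among them. These tests do not show that the Hox genes were alike. The 95% intervals of the fit, taken gene by gene and not adjusted for their number, give the bound: they lay within a 2-fold change in either direction for all 37 genes and within a 1.5-fold change for 33, and 36 of the 37 included 0.

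Groups that did not overlap were about as common as among other genes. Both cKO arrays lay above both Het arrays in 7 Hox genes and below them in 5, together 12 of 37 or 32.4%, against 33.5% of all genes (17.8% above and 15.6% below). With an array left out the count was 27 of 37 without cKO replicate 1, 25 without cKO replicate 2, 22 without Het replicate 1 and 24 without Het replicate 2, where 71.1%, 65.9%, 62% and 67.4% of all genes were separated. The difference between groups was larger than the gap between replicates in both groups for 7 Hox genes or 18.9%, against 21.7% of all genes. For the other 30 the 2 replicates of at least 1 group differed by as much as the groups did, or by more.

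**Figure D1:**
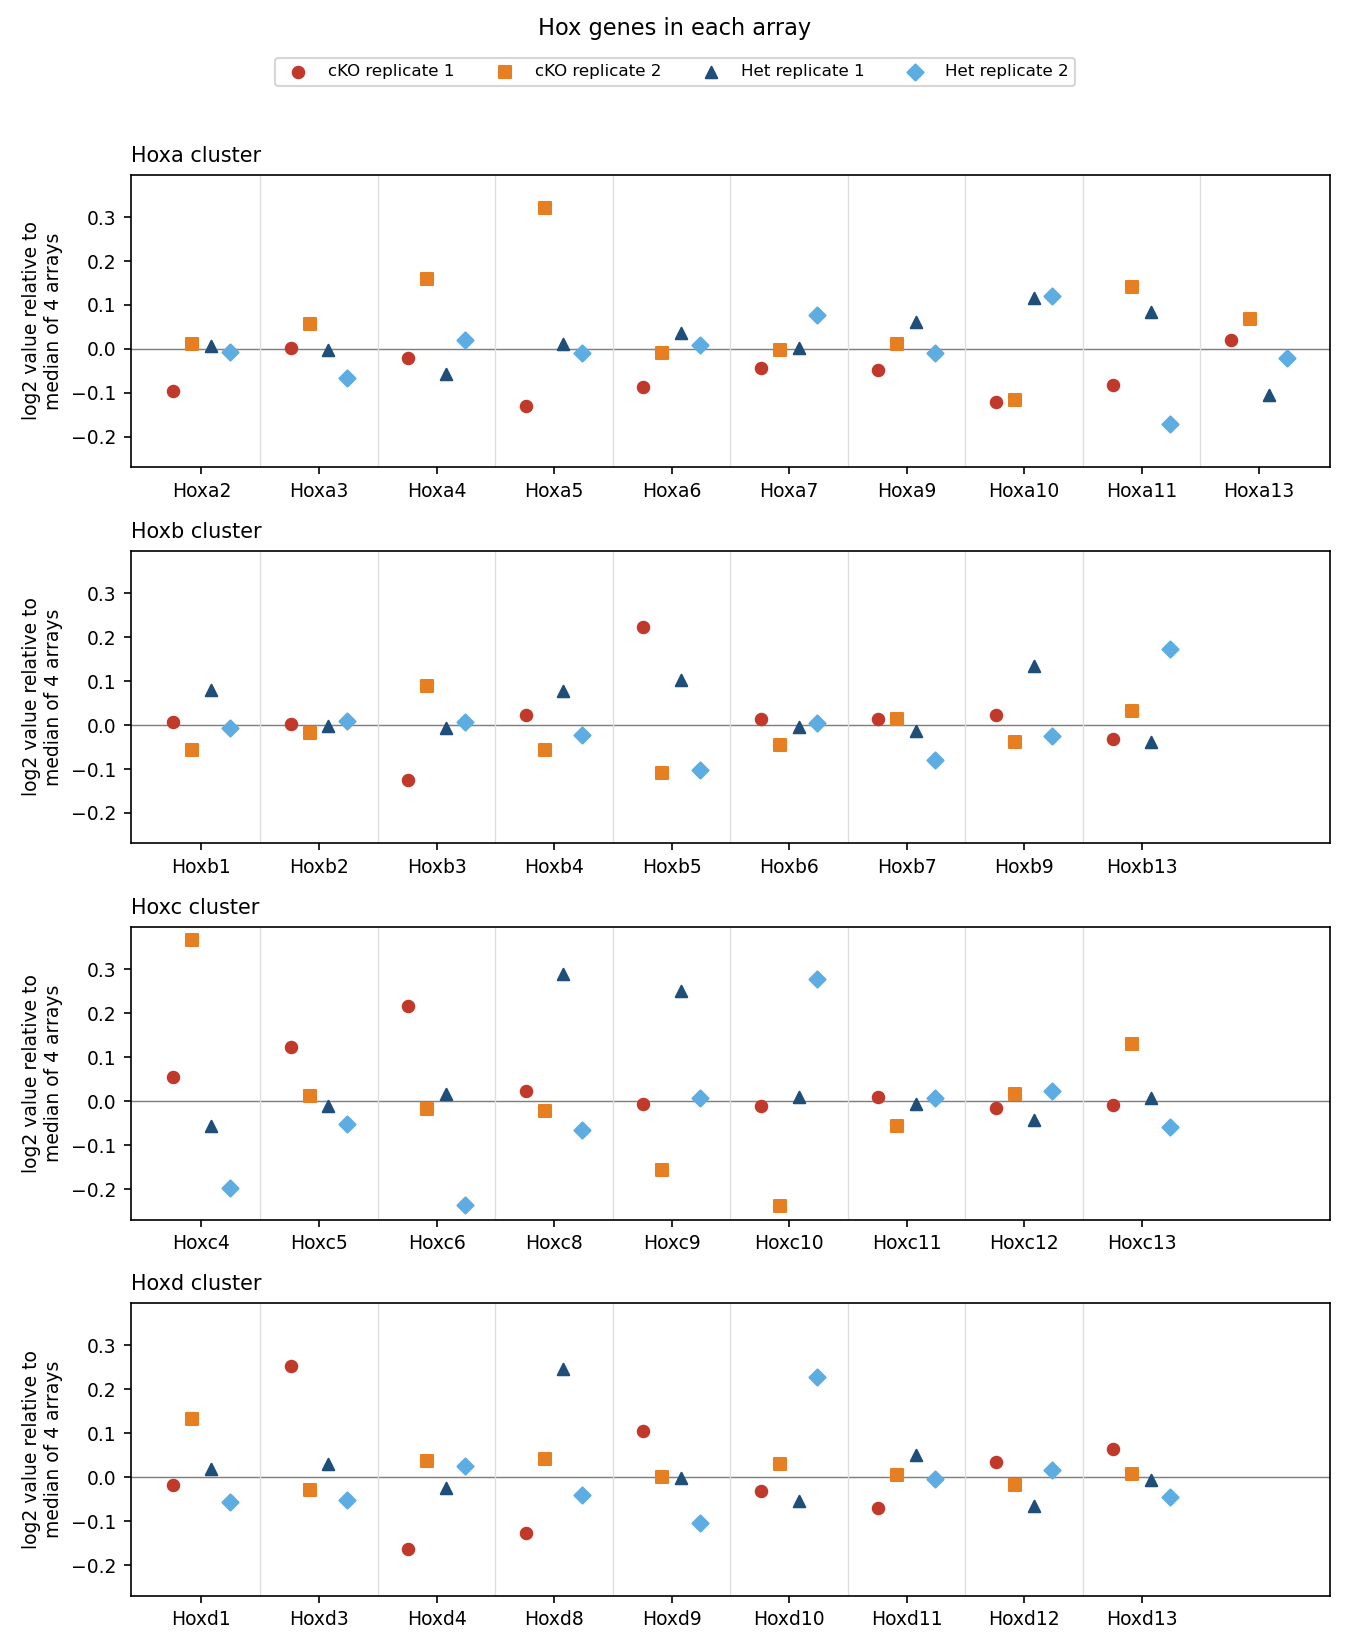
Log2 value of each measured Hox gene in each of the 4 arrays, relative to the median of the 4 arrays, with a panel per cluster and genes in order of paralogue number; points are single arrays (cKO replicates 1 and 2, then Het replicates 1 and 2). In Hoxa10 the 2 cKO points and the 2 Het points lie almost on each other, while in Hoxa5, Hoxc8 and Hoxd3 1 array stands apart from the other 3.

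In the Hoxa cluster 5 genes were above 0 and 5 below, with a median difference of 0.011, which was -0.079 without cKO replicate 2. Hoxa10, a gene of the posterior body and limb that is also needed in the uterus, stood at -0.12 and -0.12 in cKO against 0.12 and 0.12 in Het. The replicates of each group were nearly equal and the groups did not overlap. The difference was -0.24 ± 0.03 (moderated SE, n = 2 per group; 95% interval -0.34 to -0.14), or 1.18-fold, with an adjusted p of 0.897 by limma. The SD of the replicates themselves was far smaller, 0.0026 in cKO and 0.0024 in Het, because the fit draws the spread of a gene toward that of all genes. Leaving out any 1 array kept it between -0.239 and -0.235.

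Hoxa13, which patterns the digits and the distal gut and urogenital tract, stood at 0.021 and 0.068 in cKO against -0.10 and -0.021 in Het, a difference of 0.11 ± 0.05 (SE). Groups did not overlap here either. Hoxa5, known from the lung and the neck-to-thorax boundary of the spine, stood at -0.13 and 0.32 in cKO against 0.010 and -0.010 in Het. The 2 cKO arrays were thus the lowest and the highest of the 4. Its difference of 0.10 ± 0.17 became -0.13 without cKO replicate 2. Hoxa9, a posterior gene also active in blood progenitors, stood at -0.049 and 0.010 in cKO against 0.062 and -0.010 in Het, a difference of -0.045 ± 0.049 with overlapping groups. The remaining 6 Hoxa genes had differences from -0.070 (Hoxa6) to 0.086 (Hoxa4). Hoxa3 was separated upward at 0.064, Hoxa6 and Hoxa7 downward at -0.070 and -0.063, and Hoxa2, Hoxa4 and Hoxa11 overlapped.

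The Hoxb genes varied least between groups. Differences ran from -0.068 to 0.061, with 2 genes above 0, 7 below and a median of -0.018. Only Hoxb7, at 0.014 and 0.014 in cKO against -0.014 and -0.080 in Het, had separated groups. Hoxb1, a hindbrain gene, stood at 0.0063 and -0.057 in cKO against 0.079 and -0.0063 in Het, a difference of -0.061 ± 0.053 (SE). Hoxb9, a thoracic patterning gene, stood at 0.024 and -0.040 in cKO against 0.14 and -0.024 in Het. Het replicate 1 was the highest of the 4 arrays in both genes. The difference of Hoxb9 was -0.064 ± 0.073 and turned to 0.016 without Het replicate 1.

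Hoxb13, the most posterior gene of its cluster and known from the tail and the prostate, stood at -0.031 and 0.031 in cKO against -0.037 and 0.17 in Het. Its difference of -0.068 ± 0.090 turned to 0.037 without Het replicate 2, the one array that stood apart. Hoxb2 had the smallest range over the 4 arrays of any Hox gene, 0.027, which lies at percentile 3.1 of all genes. A range this small is also what a gene without detectable RNA would give, and levels were not available to tell these apart. Hoxb5 had the second-largest gap between cKO replicates among all Hox genes, standing at 0.22 and -0.11 in cKO against 0.10 and -0.10 in Het. In both groups replicate 1 was the higher, and the difference was 0.057 ± 0.151 (SE).

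The Hoxc genes varied most. Their median range over the 4 arrays was 0.35, against 0.15 for Hoxa, 0.14 for Hoxb, 0.20 for Hoxd and 0.14 for all genes, and Hoxc4, Hoxc10, Hoxc9 and Hoxc6 were 4 of the 5 Hox genes with the largest differences in size, Hoxa10 being the other one. Neighbouring genes often lay on the same side of 0: Hoxc4, Hoxc5 and Hoxc6 had differences above 0, with a median of 0.21, and Hoxc8, Hoxc9, Hoxc10 and Hoxc11 had differences below 0, with a median of -0.16, while Hoxc12 and Hoxc13, at the posterior end, were above 0 again at 0.0099 and 0.086. This grouping was noticed after the values were seen and has no test. Over the whole cluster the median was 0.0099, with 5 genes above 0 and 4 below.

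Hoxc4, an anterior gene of the cluster that shapes neck and upper thoracic vertebrae, stood at 0.056 and 0.37 in cKO against -0.056 and -0.20 in Het. Both cKO arrays were above both Het arrays, cKO replicate 2 far more so. Its difference was 0.34 ± 0.13 (SE; 95% interval -0.05 to 0.73), with an adjusted p of 0.943 by limma, and it was 0.18 without cKO replicate 2. Hoxc10, a lumbar and hindlimb gene, stood at -0.011 and -0.24 in cKO against 0.011 and 0.28 in Het. These groups were separated only narrowly, between the replicate 1 arrays. The difference of -0.27 ± 0.14 had an adjusted p of 0.961 and ran from -0.40 to -0.14 with 1 array left out.

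Hoxc9, which sets thoracic motor neuron identity, stood at -0.0075 and -0.16 in cKO against 0.25 and 0.0075 in Het. Its groups were also separated, with a difference of -0.21 ± 0.11 and an adjusted p of 0.971. It was -0.089 without Het replicate 1 and -0.33 without Het replicate 2. Hoxc8, its neighbour and likewise a gene of the thoracic level, stood at 0.022 and -0.022 in cKO against 0.29 and -0.065 in Het. Here Het replicate 1 alone was high. The difference of -0.11 ± 0.14 turned to 0.065 without that array. Hoxc6 stood at 0.22 and -0.017 in cKO against 0.017 and -0.24 in Het, a difference of 0.21 ± 0.13 with overlapping groups, and Hoxc5 was separated at 0.099 ± 0.057.

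Hoxc13, the hair shaft gene, stood at -0.0080 and 0.13 in cKO against 0.0080 and -0.058 in Het, a difference of 0.086 ± 0.067 (SE) with overlapping groups. Het replicate 2 was the lowest array for Hoxc13 and the highest for keratinocyte markers, whose median over 13 genes was -0.049 and 0.0081 in cKO against -0.096 and 0.38 in Het. Of these markers 12 were below 0 in the difference. The 16 measured markers of hair shaft and inner root sheath likewise had their highest median, 0.086, in Het replicate 2, against 0.018 and -0.029 in cKO and -0.064 in Het replicate 1. The part of these markers in the Hox values was not tested. Hoxc11 and Hoxc12 had ranges of 0.066 and 0.065 over the 4 arrays, among the smallest of the Hox genes.

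**Figure D2:**
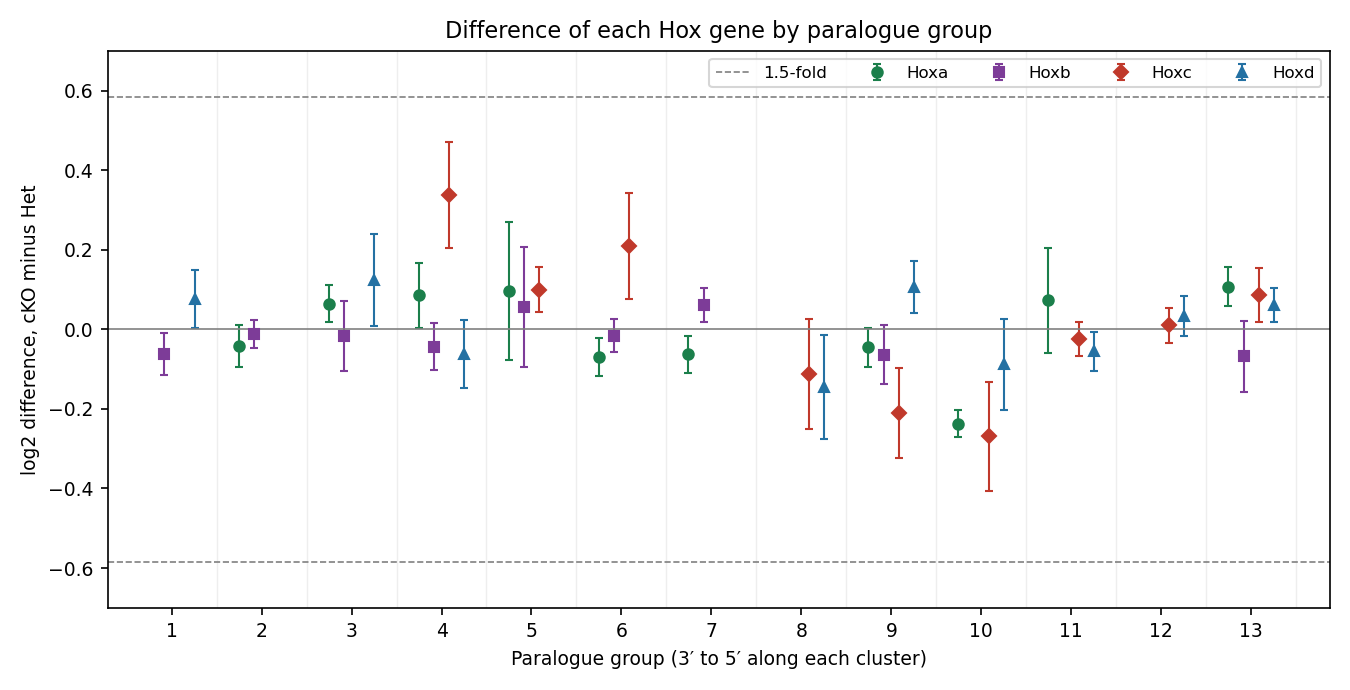
Log2 difference, cKO minus Het, of each of the 37 Hox genes by paralogue group (horizontal axis) and cluster (colour and symbol); bars are standard errors of the limma fit with 2 arrays per group, and dashed lines mark 1.5-fold. All points lie inside the dashed lines, from -0.27 (Hoxc10) to 0.34 (Hoxc4), and the 3 genes of group 10 all lie below 0.

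The Hoxd cluster had 5 genes above 0 and 4 below, with a median of 0.033, which was -0.0015 without Het replicate 1. Hoxd8, at -0.13 and 0.041 in cKO against 0.25 and -0.041 in Het, had the largest difference in size, -0.15 ± 0.13 (SE), with overlapping groups. As in Hoxc8, Het replicate 1 was the high array, and without it the difference was -0.0015. Hoxd3, known from the first neck vertebrae, stood at 0.25 and -0.029 in cKO against 0.029 and -0.052 in Het, where cKO replicate 1 was the high array. Its difference of 0.12 ± 0.12 became -0.018 without that array. Hoxd9, a gene of the limb and lumbosacral region, stood at 0.11 and 0.0013 in cKO against -0.0013 and -0.10 in Het, a difference of 0.11 ± 0.07 with separated groups. Hoxd13, the digit gene, was separated as well, at 0.064 and 0.0067 in cKO against -0.0067 and -0.045 in Het, and its difference was 0.061 ± 0.043. The other 5 Hoxd genes lay between -0.088 (Hoxd10) and 0.076 (Hoxd1) and overlapped.

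By paralogue group, 5 of the 13 groups had all their measured members on one side of 0. Each group held only 2 to 4 measured genes, so one-sided groups arise easily from signs alone, and the count was not tested. Group 10 had the largest median difference in size, -0.24, with Hoxa10 at -0.24, Hoxc10 at -0.27 and Hoxd10 at -0.088. Hoxd10 overlapped, standing at -0.031 and 0.031 in cKO against -0.054 and 0.23 in Het. The 2 genes of group 8 were at -0.11 and -0.15, the 3 of group 5 at 0.10, 0.057 and 0.099, and the members of groups 2 and 12 lay within 0.042 of 0. The 13th group, which marks the distal limb and the tail end of the trunk, had Hoxa13, Hoxc13 and Hoxd13 above 0 and Hoxb13 below.

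Taken in larger blocks, groups 1 to 4 had a median difference of -0.012 over 11 genes, groups 5 to 8 one of 0.021 over 10 genes and groups 9 to 13 one of -0.034 over 16 genes. None of these directions held with each array left out: groups 1 to 4 reached 0.037 and groups 5 to 8 -0.036 without cKO replicate 1, and groups 9 to 13 reached 0.011 without Het replicate 2. Array by array, the median of groups 1 to 4 was 0.0017 and 0.037 in cKO against -0.0017 and -0.0072 in Het. For groups 5 to 8 it was 0.014 and -0.0057 in cKO against 0.013 and -0.047 in Het, and for groups 9 to 13 it was -0.0093 and 0.0056 in cKO against 0.0033 and 0.0015 in Het. No block stood apart as a whole in any array by more than 0.05.

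The median gap between replicates over the Hox genes was 0.079 in cKO and 0.074 in Het, and the median size of the group difference was 0.068. Over all genes these were 0.071, 0.062 and 0.047. A gap is between single arrays, while the group difference is between means of 2 arrays, which vary less. The similar sizes therefore do not tell whether genotypes differed more than replicates did. With 1 array left out, differences ran from -0.081 to -0.0090 for Hoxa9, from 0.066 to 0.15 for Hoxa13, from -0.10 to -0.019 for Hoxb1, from 0.017 to 0.16 for Hoxc13, from 0.054 to 0.16 for Hoxd9 and from 0.032 to 0.089 for Hoxd13. The widest gap was 0.45 for Hoxa5 in cKO and 0.35 for Hoxc8 in Het. The range over the 4 arrays exceeded the all-gene median in 22 of 37 Hox genes, among them 7 of the 9 Hoxc genes, 6 of the 9 Hoxd genes, 5 of the 10 Hoxa genes and 4 of the 9 Hoxb genes. At the low end, 6 Hox genes had a range under 0.1, as had 36% of all genes.

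**Figure D3:**
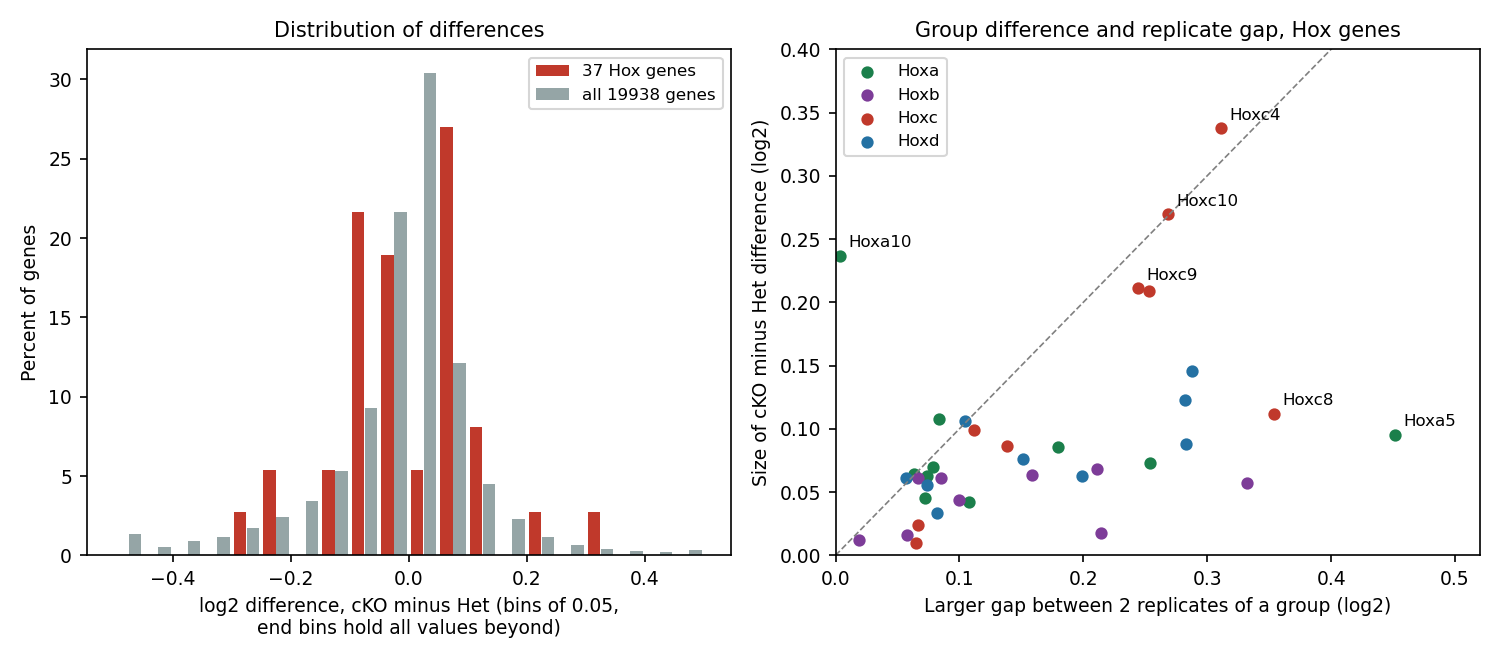
Left, percent of the Hox genes and of all genes in bins of the log2 difference, cKO minus Het. Right, size of that difference for each Hox gene against the larger of its 2 replicate gaps, both in log2 units, with a dashed line of equality; 7 genes lie above the line and 30 on or below it, and Hoxa10 stands apart with a replicate gap near 0.

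The upstream sequences of 3 members are shown because SOX proteins bind DNA, and because these genes had the largest difference (Hoxc4), the smallest p (Hoxa10) or, of the members with a SOX-type motif, the largest difference (Hoxd3). Each run is the 250 bases before a RefSeq transcript start in GRCm38.p6, written 5′ to 3′ on the strand of the gene. Capitals mark a match to ACAAAG or ACAATG, core sequences of SOX binding sites, on either strand; these motifs do not overlap in the windows shown.
Hoxc4, chr15:103034145-103034394, plus strand: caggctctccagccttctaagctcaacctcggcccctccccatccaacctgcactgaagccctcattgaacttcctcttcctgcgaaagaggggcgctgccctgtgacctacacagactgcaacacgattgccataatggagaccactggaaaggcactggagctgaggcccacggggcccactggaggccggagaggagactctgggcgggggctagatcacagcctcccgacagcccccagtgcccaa
Hoxa10, chr6:52240855-52241104, minus strand: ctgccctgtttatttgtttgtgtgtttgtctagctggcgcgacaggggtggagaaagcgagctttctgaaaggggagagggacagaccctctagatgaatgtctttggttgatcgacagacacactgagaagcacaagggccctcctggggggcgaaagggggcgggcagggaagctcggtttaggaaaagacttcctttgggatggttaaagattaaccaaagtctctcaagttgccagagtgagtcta
Hoxd3, chr2:74711743-74711992, plus strand: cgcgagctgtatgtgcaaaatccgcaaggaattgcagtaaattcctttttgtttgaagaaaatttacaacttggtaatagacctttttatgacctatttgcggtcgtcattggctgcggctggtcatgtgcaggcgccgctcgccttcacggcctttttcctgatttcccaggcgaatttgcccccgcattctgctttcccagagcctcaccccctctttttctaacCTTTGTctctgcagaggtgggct

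Hoxd3 thus held 1 match, to ACAAAG on the reverse strand, and the windows of Hoxc4 and Hoxa10 held none. RefSeq windows were at hand for 21 of the 37 Hox genes, 23 windows in all. At least 1 motif was found in 5 of them or 21.7%, in each case ACAAAG, against 25.2% of 32851 windows of this length over all genes. The 5 genes were Hoxa3, Hoxa11, Hoxb1, Hoxd3 and Hoxd11, with differences from -0.061 to 0.12. A match is a description of these letters and not a binding site, and a window without one says nothing about the factor.

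Several microRNA genes lie inside the Hox clusters, and miR-10 and miR-196 are known regulators of Hox transcripts in vertebrates. Their mature RefSeq sequences are shown with the seed, bases 2 to 8, in capitals, because the genes in different clusters share it.
mmu-miR-10a-5p, Hoxb cluster: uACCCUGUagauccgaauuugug
mmu-miR-10b-5p, Hoxd cluster: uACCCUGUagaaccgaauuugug
mmu-miR-196a-5p, Hoxb and Hoxc clusters: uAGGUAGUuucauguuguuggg
mmu-miR-196b-5p, Hoxa cluster: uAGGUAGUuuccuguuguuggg

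The arrays hold probe sets for these genes and do not measure the mature form separately. Differences were within 0.025 of 0 for all of them, at 0.013 for Mir10a, 0.0058 for Mir10b, 0.024 for Mir196a-1, 0.025 for Mir196a-2 and 0.018 for Mir196b. Mir615, in the Hoxc cluster, stood at -0.018 and -0.013 in cKO against 0.013 and 0.12 in Het, a difference of -0.080 ± 0.052 (SE) with separated groups.

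Of 22 noncoding RNAs and other genes listed for the inside or edge of the clusters, 12 were measured, 8 above 0 and 4 below, with a median of 0.0092 against 0.0034 over all genes; none passed. Hoxd3os1, an antisense RNA at Hoxd3, had the largest difference, standing at 0.31 and 0.030 in cKO against -0.026 and -0.046 in Het, 0.21 ± 0.11 (SE). As in Hoxd3, cKO replicate 1 was the high array. Evx2, the homeobox gene beside Hoxd13, stood at -0.14 and -0.062 in cKO against 0.062 and 0.10 in Het, a difference of -0.18 ± 0.05 with an adjusted p of 0.936 by limma.

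Beyond the clusters, the 5 nearest protein-coding genes on each side of each cluster made a list of 40, of which 37 were measured, with a median difference of 0.0008, 20 above 0 and 17 below; none passed. Atp5g1, an ATP synthase subunit gene near the Hoxb cluster, had a difference of -0.47 ± 0.13 (SE), and Copz2, a vesicle coat gene near the same cluster, one of -0.36 ± 0.21. The largest flanking differences thus exceeded those of every Hox gene in size.

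Hox proteins bind DNA together with partners of the TALE homeodomain class, of which 10 of 11 were measured. Differences were above 0 for 7 and below for 3, with a median of 0.024, and none passed. Meis1, a Hox and Pbx partner, had the largest: it stood at 0.13 and 0.15 in cKO against -0.13 and -0.26 in Het, a difference of 0.33 ± 0.06 (SE) with an adjusted p of 0.897 by limma. Its groups were separated, with replicates close together in cKO. Tgif1, a repressor of the same class, had a difference of 0.27 ± 0.08.

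Among 19 genes that act upstream of Hox expression, namely Cdx factors and the retinoic acid pathway with a few others, 9 were above 0 and 10 below, with a median of -0.0095, and none passed. Aldh1a3, which makes retinoic acid from retinaldehyde, stood at 0.30 and 0.89 in cKO against -0.38 and -0.30 in Het. Both cKO arrays were above both Het arrays, and the difference of 0.93 ± 0.23, or 1.91-fold, was larger than that of any Hox gene; its adjusted p was 0.934. Cyp26b1, which breaks retinoic acid down, had a difference of -0.23 ± 0.07, with separated groups.

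Polycomb proteins keep Hox genes silent, and Trithorax proteins keep them active. Of 18 measured Polycomb genes 8 were above 0 and 10 below, with a median of -0.039, and of 12 Trithorax and demethylase genes 7 were above 0 and 5 below, with a median of 0.019; none passed. Jarid2, a Polycomb partner, had a difference of 0.22 ± 0.05 (SE). Ezh2, the H3K27 methyltransferase, stood at 0.22 and -0.65 in cKO against -0.046 and 0.046 in Het, so that the cKO arrays were the highest and the lowest. Its difference was -0.22 ± 0.33. Dpy30, a subunit of H3K4 methyltransferase complexes, had a difference of -0.39 ± 0.06, and the X-linked demethylase gene Kdm6a one of 0.25 ± 0.07, beside the Xist values above.

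Other transcription factors with regional expression in skin and limb numbered 30 measured genes of 34, with 17 above 0, 13 below and a median of 0.010; none passed. Dlx5, a distal limb and craniofacial gene, had a difference of 0.40 ± 0.14 (SE), and Prrx2, a limb and craniofacial mesenchyme gene, one of -0.40 ± 0.19. Tbx5 and Tbx4, which mark forelimb and hindlimb, had differences of -0.095 ± 0.109 and -0.14 ± 0.06, and Pitx1, another hindlimb gene, one of 0.027 ± 0.054. These 3 were picked out for their role as limb markers and not by the naming rule.

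Genes tied to Hoxc13 in the hair shaft, 16 measured of 19, were above 0 in 10 cases and below in 6, with a median of 0.029; none passed. Lef1, a nuclear partner of beta-catenin found in both matrix and papilla, had a difference of 0.51 ± 0.23 (SE), and the hair keratin gene Krt33a one of 0.39 ± 0.29. Krt33a stood at 0.72 and -0.036 in cKO against -0.14 and 0.036 in Het, so 1 cKO array carried it. Foxn1, which Hoxc13 is known to activate in mice, had a difference of 0.045 ± 0.044.

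Marker lists of cells other than the papilla had array medians further from 0 than the Hox clusters in several cases. Dermal fibroblast markers, from cells that also use a Hox code, were below 0 in 9 of 11 cases, with a median of 0.012 and -0.10 in cKO against 0.086 and 0.055 in Het. Crabp1, among those below 0 at -0.32, was also listed as a papilla marker. Lum, a proteoglycan gene, differed by -0.54 ± 0.12 (SE), and Col1a2, a collagen gene, by -0.37 ± 0.21. The fibroblast markers Dpp4 and Twist2 went the other way, at 0.20 ± 0.09 and 0.21 ± 0.10, both with separated groups. Melanocyte markers were below 0 in 7 of 10 cases, with medians of -0.060 and 0.062 in cKO against -0.086 and 0.15 in Het, and Mlana, a melanosome gene, by itself spanned -0.65 to 1.14. Markers of Schwann cells and glia were below 0 in 7 of 10 cases, with medians of -0.0083 and -0.077 in cKO against 0.033 and 0.016 in Het. Their median difference was -0.082. Egr2 at -1.35 ± 0.23 and Fabp7 at -0.82 ± 0.08 had by far the largest differences of this list, while Mbp, Foxd3 and Ngfr were above 0. The 4 Hox clusters, by comparison, had array medians between -0.066 and 0.034. The part of these cell types in the Hox values was not tested.

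**Figure D4:**
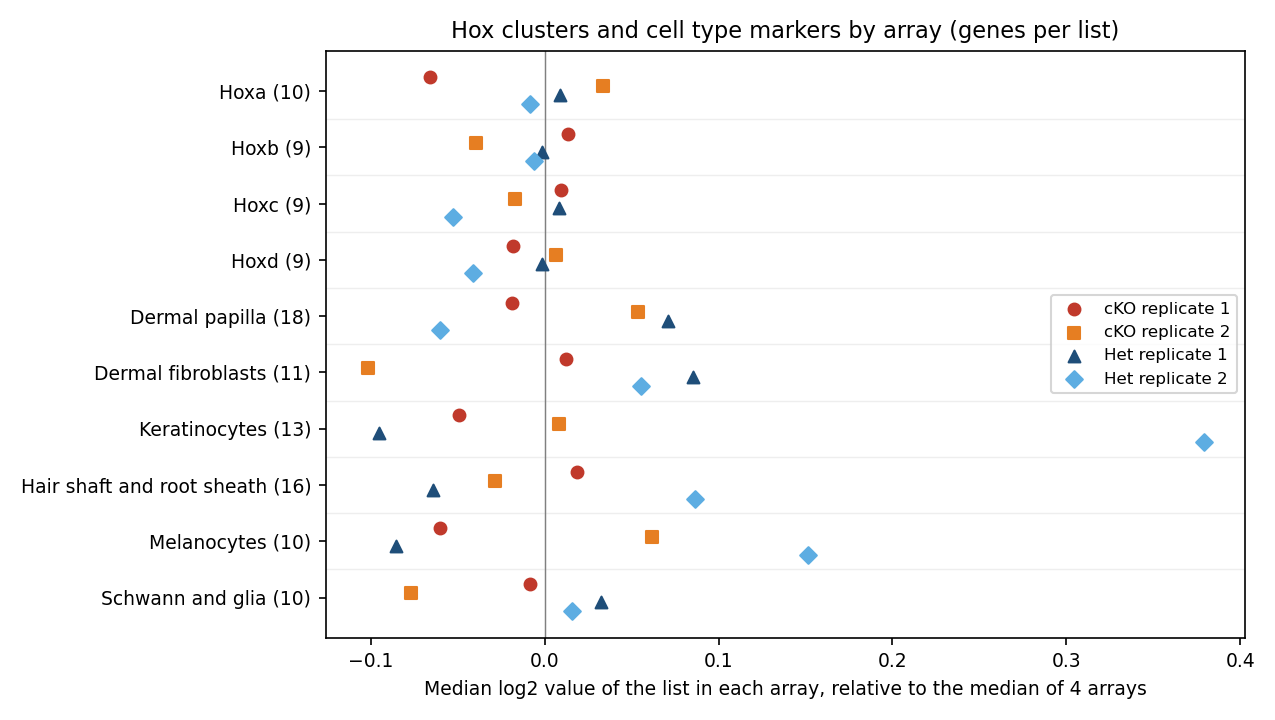
Median log2 value of each Hox cluster and of 6 marker lists in each array, relative to the median of the 4 arrays, with the number of measured genes in brackets; points are single arrays. The Hox clusters stay between -0.066 and 0.034, while keratinocyte markers reach 0.38 in Het replicate 2.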

How the data were processed

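RNA of 2 cKO and 2 Het samples was hybridised to Affymetrix Mouse Gene ST arrays. It was amplified and biotin-labelled, per the labels' protocols. The authors made the deposited log2 values with RMA, per the submitters' processing notes; the table names no base, and log2 is taken from what RMA gives. How the values were centred, with which software version, is not given in the labels. Row medians were 0 within 1e-06 in all 28853 probe sets, so no filter on dim probe sets was possible.

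Probe sets naming 1 gene (21789) were averaged per gene, while 1621 naming several and 5443 with no listed gene stayed out. The limma package (3.58.1, in R 4.3.3) fitted group as the only term by lmFit and eBayes across all 19938 genes; p-values were adjusted by Benjamini-Hochberg and called under 0.05. Residual degrees of freedom were 2 and prior ones 1.52. An exact permutation test over 2 against 2 arrays cannot go below p = 0.333 and was not used. On simulated data over 19938 genes, with 200 genes changed by a log2 value of 1, the fit called 119 of the 200, with 4 false calls. When the value was 2 it called 159, with 10 false calls. The simulated noise was normal and independent between genes. These counts therefore do not tell how many changes would be called in the real arrays, where the fit called 0 genes. Changes of the size seen here were not simulated.

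Members, lists and tests were chosen with earlier results of these data known. Named by rule were the 3 largest differences per cluster, separated genes past 1.5-fold, Hoxa9, Hoxa13, Hoxb13, Hoxc8, Hoxc13 and Hoxd13, and the 2 largest differences of each list other than the cell type markers; marker genes and further genes were named after their values were seen. The marker lists not described above had median differences of -0.033 (dermal sheath and smooth muscle), 0.028 (endothelium), 0.022 (immune cells) and -0.0013 (Merkel cells). Alternatives were arrays centred on their medians, probe sets tested one by one, a median per gene, a robust prior, an unmoderated statistic, a replicate block, a threshold of 0.1, other folds and each array left out.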

Additional observations from a re-analysis of the deposited data

How the results depend on the processing

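No setting gave a called gene: over all genes and over the Hox genes the count was 0 with arrays centred on their medians, probe sets one by one, a median per gene, a robust prior, an unmoderated statistic, a replicate block, a threshold of 0.1 and each array left out. All 16 Hox genes named by rule kept their direction under the settings that used all 4 arrays. This could hardly be otherwise: with 1 probe set per Hox gene, only centring the arrays changed these differences at all, and only slightly. With each array left out 11 kept their direction. Those among them with separated groups had to keep it, while Hoxa9, Hoxb1, Hoxc13 and Hoxd8 kept it with overlapping groups. The adjusted p of Hoxa10 ranged from 0.514 to 1 over the alternatives, and the lowest of any Hox gene was 0.514. With 1 array left out, differences ran from -0.13 to 0.32 for Hoxa5, from -0.14 to 0.016 for Hoxb9, from -0.17 to 0.037 for Hoxb13, from -0.29 to 0.065 for Hoxc8 and from -0.018 to 0.26 for Hoxd3. The median over the Hox genes ran from -0.015 to -0.0015, that of Hoxa from -0.079 to 0.051, of Hoxb from -0.045 to -0.0032, of Hoxc from 0.0094 to 0.065 and of Hoxd from -0.0015 to 0.042. Medians ran from -0.0063 to 0.037 for paralogue groups 1 to 4, from -0.036 to 0.079 for groups 5 to 8 and from -0.036 to 0.011 for groups 9 to 13, so the direction turned in each block, as it did for Hoxa and Hoxd. Separated Hox genes numbered 22 to 27, a rise that comes with fewer arrays. With the fold threshold lowered to a difference of 25%, 1 separated Hox gene, Hoxc4, counted, against 0 at 1.5-fold. The replicate block left 1625 of the 19938 genes at an unadjusted p under 0.05 by limma, against 1053 without it. Of the 37 Hox genes it left 3, against 1 without it, which is about the same share as over all genes. The labels do not say that a replicate number marks a shared litter or day. The correlation of same-numbered deviations was 0.304 over all genes and 0.0956 over the Hox genes. The 2 arrays per group limit every value, and signal over background was not available.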
